A study of Mus musculus with 200 samples.

Results

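A set of 7 genes of fat mobilisation and fatty acid oxidation, Pnpla2, Pdk4, Angptl4, Cpt1a, Plin2, Ucp2 and Acaa2, was followed in mouse brain after closed head injury (CHI) or sham surgery. The members were chosen by gene name, 7 of the 56941 genes in the deposited count table. Each gene was measured in all 200 mice and passed the filter on low counts in every comparison given here.

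Neutral fat is stored in lipid droplets, where perilipins such as Plin2 coat the surface and the lipase Pnpla2, also called adipose triglyceride lipase, releases the first fatty acid from triglyceride. Fatty acids enter mitochondria through the carnitine shuttle, of which Cpt1a is a rate-limiting enzyme, and are then shortened by beta-oxidation, whose last step can be run by the thiolase Acaa2. Pdk4 is a kinase that switches off pyruvate dehydrogenase and so spares glucose, Ucp2 is a carrier of the inner mitochondrial membrane, and Angptl4 is a secreted inhibitor of lipoprotein lipase. Several of these genes are known targets of PPAR receptors and rise in fasting tissues, and in the brain fatty acid oxidation is best known in astrocytes.

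Brains came from C57BL/6J mice, and from mice labelled IL-1R1 gKO, then IL-1R1 eRestore and finally IL-1R1 nRestore, which are written gKO, eRestore and nRestore here. The labels name these alleles without describing them, and the promoter or cell type behind each restoration is not given in the sources used here. Tissue was taken at 9, 24 or 72 h after surgery. At 9 h there were 15 CHI and 6 sham C57BL/6J mice, 13 and 6 gKO mice, 12 and 6 eRestore mice, and 6 and 4 nRestore mice. At 24 h there were 14 and 6 C57BL/6J mice, 12 and 6 gKO mice, 9 and 5 eRestore mice, and 8 and 5 nRestore mice. At 72 h there were 14 and 6 C57BL/6J mice, 12 and 6 gKO mice, 12 and 6 eRestore mice, and 6 and 5 nRestore mice. Ages ran from 4.4 to 6.8 months in C57BL/6J, 3.3 to 7.4 months in gKO, 4.5 to 7.4 months in eRestore and 3.3 to 7.67 months in nRestore mice. Both sexes were present in every group except the nRestore mice at 72 h, which were all male. For the C57BL/6J mice the study's methods give an impact to the head under isoflurane, with sham mice also anaesthetised, and 1 brain hemisphere per mouse after perfusion. The same methods give a light cycle and free access to food for the C57BL/6J mice.

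Library totals ran from 14857972 to 57355650 counts. Il1r1 did not check the genotype, because the whole-gene level was at a median of 7.57 CPM (counts scaled to library size) in gKO sham mice at 9 h against 3.68 in C57BL/6J sham mice. Choroid plexus, the tissue that secretes cerebrospinal fluid, was unequally present: its 6 markers Ttr, Folr1, Kl, Clic6, Otx2 and Kcnj13 summed to 5.20 to 6308 TPM (counts scaled to transcript length and library size) per mouse with a median of 32.5, and 16 libraries lay above 1000. The 2 highest were sham mice at 9 h, eRestore replicate 3 at 6308 TPM and C57BL/6J replicate 4 at 6016 TPM. Among the sham mice at 9 h, the 4 above 1000 TPM had Ucp2 at 14.7, 27.1 and 44.5 CPM (lowest, median, highest) and the 18 below it had 9.21, 16.4 and 25.8, so results are also given without the 16 libraries where they changed. The mice came from 8 experiments. No experiment held both 9 h and later mice, and all nRestore mice at 9 h belonged to an experiment without C57BL/6J mice.

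Levels in the 67 sham mice ordered the genes by abundance per transcript length. Ucp2 had a median of 25.5 TPM with a range of 13.8 to 92.6. Acaa2 followed at 23.0 TPM (17.2 to 33.7) and Cpt1a at 14.9 TPM (11.2 to 26.7). Pnpla2 was at 13.3 TPM (9.63 to 21.7), close to Cpt1a. Pdk4 was at 8.53 TPM (6.57 to 13.4), and Plin2 at 7.21 TPM (3.45 to 11.6). Angptl4 was the lowest at 1.23 TPM (0.381 to 3.93), with 9 to 202 counts per mouse over all 200 mice, so its values carry the most counting error. The ranges of all neighbours in this order overlapped, those of Angptl4 and Plin2 only at their ends.

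In C57BL/6J mice at 9 h, the earliest time sampled, 3 of the 7 genes were higher after CHI and none was lower. Pnpla2, Angptl4 and Ucp2 rose 2.64-fold, 3.49-fold and 2.25-fold, while Pdk4, Cpt1a, Plin2 and Acaa2 did not pass the test. Expression was compared with edgeR, sex and age included, and a gene was called at a Benjamini-Hochberg adjusted p under 0.05 over all genes tested. By that rule 14.1% of the 16967 genes tested were called, 7.05% higher and 7% lower. The median log2 difference of the 7 genes was 0.30, against -0.01 over all genes.

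**Figure D1:**
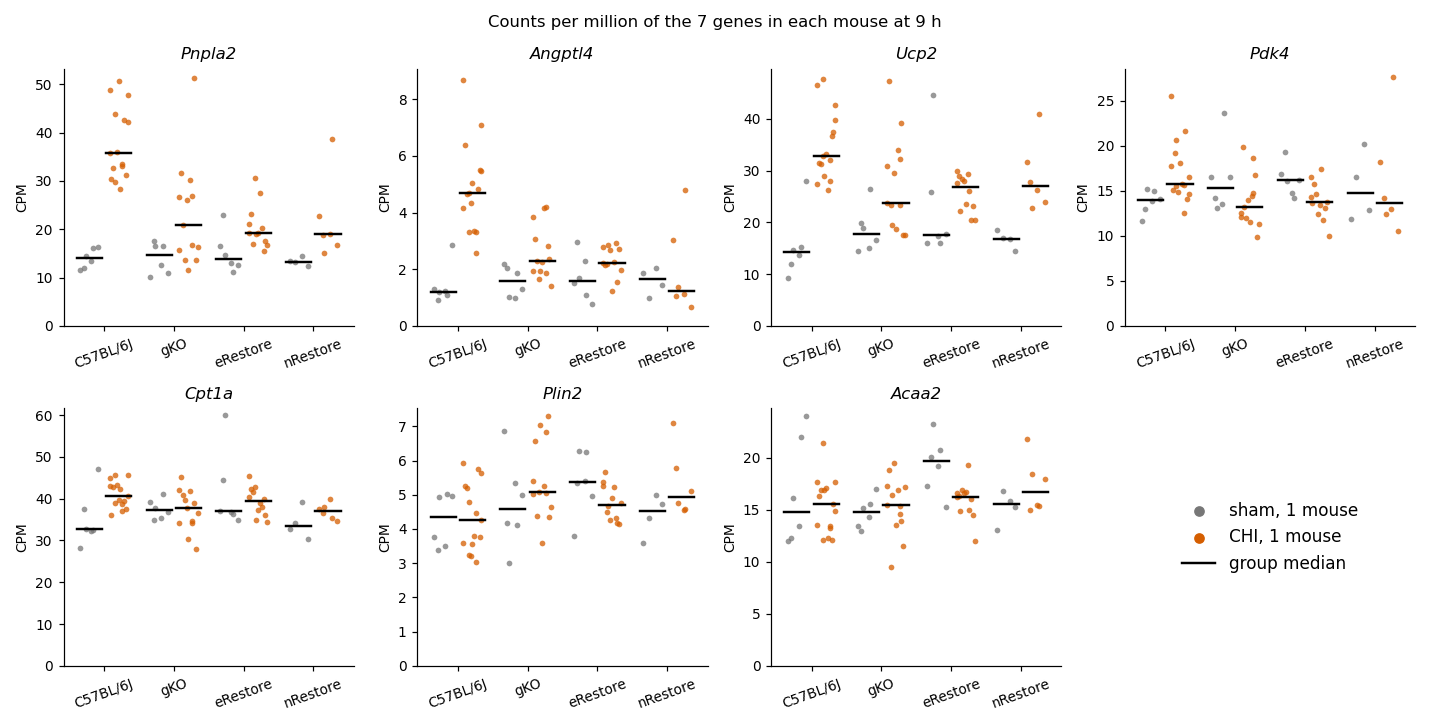
CPM (vertical axes, each starting at 0) of the 7 genes in each mouse at 9 h, in 4 strains, with sham mice in grey, CHI mice in orange and the group median as a black line. All 15 C57BL/6J CHI mice lie above the 6 sham mice for Pnpla2, and for Plin2 and Acaa2 the C57BL/6J groups overlap.

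Pnpla2, which opens triglyceride breakdown, stood at 11.6, 14.0 and 16.4 CPM (lowest, median, highest) in the 6 sham mice and at 28.4, 35.7 and 50.7 CPM in the 15 CHI mice. The groups did not overlap, since the lowest CHI mouse was above the highest sham mouse. Among all genes tested, 0.955% had every CHI mouse above every sham mouse. The log2 difference was 1.40 ± 0.13 (standard error) with an edgeR adjusted p of 1.49e-07, which placed Pnpla2 at rank 9 of 16967 by p. The difference was 1.34 in the larger of the 2 experiments that made up this comparison and 1.54 in the smaller one, with edgeR adjusted p passing in each (0.0287 in the smaller).

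Angptl4, which holds back the uptake of fat from lipoproteins, was at 0.918, 1.20 and 2.85 CPM in sham mice and at 2.56, 4.69 and 8.68 CPM in CHI mice. In 14 of 15 CHI mice it was above every sham mouse, and the overlap came from sham replicate 4. That library had the highest choroid plexus markers of this comparison, in which 2 of 6 sham and 2 of 15 CHI libraries lay above 1000 TPM. Angptl4 was higher after CHI by 1.80 ± 0.23 on the log2 scale (edgeR adjusted p = 1.17e-05). It was 2.03 without the choroid plexus libraries, 2.04 in the larger experiment and 1.41 in the smaller one, where it did not pass (edgeR adjusted p = 0.198).

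Ucp2, the mitochondrial carrier, was at 9.21, 14.2 and 27.9 CPM in sham mice and at 26.3, 32.9 and 47.8 CPM in CHI mice. In 13 of 15 CHI mice it was above every sham mouse, and the highest sham value was again replicate 4. Its log2 difference came to 1.17 ± 0.18 (edgeR adjusted p = 0.000136), and 1.35 without the choroid plexus libraries. In the larger experiment it was 1.29 and in the smaller one 0.98, where it did not pass (edgeR adjusted p = 0.380).

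Pnpla2 lies on chromosome 7 at chr7:141034404-141040656 (GRCm39, plus strand), Ucp2 at chr7:100142055-100151227 (plus strand) and Angptl4 at chr17:33992724-34000804 (minus strand). Pnpla2 and Ucp2 are each overlapped on the opposite strand, Pnpla2 by the long noncoding RNA Gm72429 over 867 exonic bases and Ucp2 by Gm72028 over 228 and by the protein-coding Dnajb13 over 1095. Whether counting used strand is not given in the sources used here, so reads from a gene and its antisense partner could not be told apart. The 250 bases before the start of Pnpla2 (chr7:141454938-141455187, plus strand) and Ucp2 (chr7:100493108-100493357, plus strand) are shown because these genes rose together and had promoter entries. Both are from RefSeq on GRCm38.p6, an older build than that of the files, and capitals mark CGTCA, which reads TGACG on the minus strand.
Pnpla2: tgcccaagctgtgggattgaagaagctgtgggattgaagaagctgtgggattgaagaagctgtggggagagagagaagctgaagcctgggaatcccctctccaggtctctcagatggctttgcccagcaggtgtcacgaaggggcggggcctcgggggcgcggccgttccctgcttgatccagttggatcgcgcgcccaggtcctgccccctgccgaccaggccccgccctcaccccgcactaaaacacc
Ucp2: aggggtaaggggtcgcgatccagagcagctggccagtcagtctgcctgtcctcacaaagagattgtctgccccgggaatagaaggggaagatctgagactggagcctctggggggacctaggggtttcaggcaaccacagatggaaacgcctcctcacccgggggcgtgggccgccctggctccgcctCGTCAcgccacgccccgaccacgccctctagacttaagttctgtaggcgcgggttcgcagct
Motifs were searched on both strands in the window from 250 bases before to 50 after the start. These were AGGTCA, a pair of AGGTCA repeats with any base between them (PPAR element), ACANNNTGT, TGACGTCA, TGACG, which TGACGTCA contains, and CACGTG. The Pnpla2 window held none of them and the Ucp2 window held TGACG alone, a sequence found in 20.8% of the 32851 promoters. The Pdk4 window also held none. The Cpt1a window held AGGTCA once, and the Plin2 window held AGGTCA and CACGTG once each. AGGTCA was in 16.3% of all promoters, CACGTG in 7.15%, ACANNNTGT in 6.85%, TGACGTCA in 1.79% and the PPAR element in 0.0396%. Angptl4 and Acaa2 had no entry. A match is a stretch of letters and was not tested as a binding site.

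The other 4 genes moved less in C57BL/6J mice at 9 h. Pdk4 was at 11.6, 14.0 and 15.2 CPM in sham mice and at 12.5, 15.8 and 25.5 CPM in CHI mice, with 10 of 15 CHI mice above every sham mouse. Its log2 difference of 0.30 ± 0.11 did not pass (edgeR adjusted p = 0.0860), although it passed in a single fit of all 200 mice, which shares the spread over groups (0.31, edgeR adjusted p = 0.0285). Cpt1a was at 28.2, 32.6 and 47.1 CPM in sham mice and at 36.1, 40.7 and 45.8 CPM in CHI mice, and no CHI mouse was above the highest sham mouse. Its log2 difference of 0.22 ± 0.08 also missed the threshold (edgeR adjusted p = 0.0542). Cpt1a turned on that sham mouse, replicate 4, without which the difference was 0.33 (edgeR adjusted p = 0.00119), and DESeq2 called it with all mice (adjusted p = 0.0383), as did the single fit (edgeR adjusted p = 0.0162).

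Plin2, the droplet coat protein, was at 3.39, 4.34 and 5.03 CPM in sham mice and at 3.03, 4.27 and 5.93 CPM in CHI mice. The CHI range enclosed the sham range, with a log2 difference of 0.02 ± 0.14 (edgeR adjusted p = 0.956). Acaa2, the thiolase, was at 12.0, 14.8 and 24.0 CPM in sham mice and at 12.1, 15.6 and 21.4 CPM in CHI mice. Its groups overlapped throughout, with a log2 difference of -0.13 ± 0.14 (edgeR adjusted p = 0.597). At the lipid droplet, the lipase Pnpla2 was above every sham mouse in 15 of 15 CHI mice and the coat protein Plin2 in 5 of 15.

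By 24 h the C57BL/6J differences in Pnpla2, Angptl4 and Ucp2 no longer passed the test. Pnpla2 was at 10.9, 12.3 and 15.6 CPM in 6 sham mice and at 11.4, 13.8 and 16.1 CPM in 14 CHI mice, with a log2 difference of 0.13 ± 0.08 (edgeR adjusted p = 0.684). Angptl4 was at 0.865, 1.58 and 1.90 CPM in sham mice and at 1.34, 1.79 and 2.67 CPM in CHI mice, with a log2 difference of 0.27 ± 0.18 (edgeR adjusted p = 0.713). Ucp2 was at 10.1, 12.4 and 14.6 CPM in sham mice and at 10.9, 14.3 and 20.4 CPM in CHI mice, with 7 of 14 CHI mice above every sham mouse and a log2 difference of 0.21 ± 0.09 (edgeR adjusted p = 0.481). All of these groups overlapped.

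Pdk4, the kinase of pyruvate dehydrogenase, was the only one of the 7 called at 24 h, and it was lower. It was at 12.7, 15.1 and 16.6 CPM in sham mice and at 10.6, 12.3 and 13.4 CPM in CHI mice, with 8 of 14 CHI mice below every sham mouse. The log2 difference was -0.29 ± 0.07 (edgeR adjusted p = 0.0475), where 0.404% of genes were called. The call was lost without the choroid plexus libraries (adjusted p = 0.0659), in the largest experiment alone (adjusted p = 0.856), without sex and age (adjusted p = 0.0996), in the single fit (adjusted p = 0.763) and in DESeq2 with gene-length offsets (adjusted p = 0.144). Cpt1a, Plin2 and Acaa2 differed by -0.05, -0.21 and 0.04 on the log2 scale and did not pass.

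At 72 h none of the 7 genes passed in C57BL/6J mice, and 0% of all genes were called by edgeR. At an unadjusted p under 0.05 there were 869 genes, none of them among the 7, while DESeq2 called 41 genes, or 22 with gene-length offsets, again without any of the 7. The log2 differences lay between -0.10 for Pnpla2 and 0.23 for Plin2, with adjusted p of 0.908 or more. Pnpla2 was at 11.1, 13.3 and 16.4 CPM in sham mice and at 8.80, 12.2 and 18.2 CPM in CHI mice, Angptl4 at 0.820, 1.05 and 2.42 against 0.532, 1.24 and 2.29, and Ucp2 at 11.5, 13.1 and 15.6 against 11.5, 15.0 and 24.1. The groups overlapped for each of them.

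**Figure D2:**
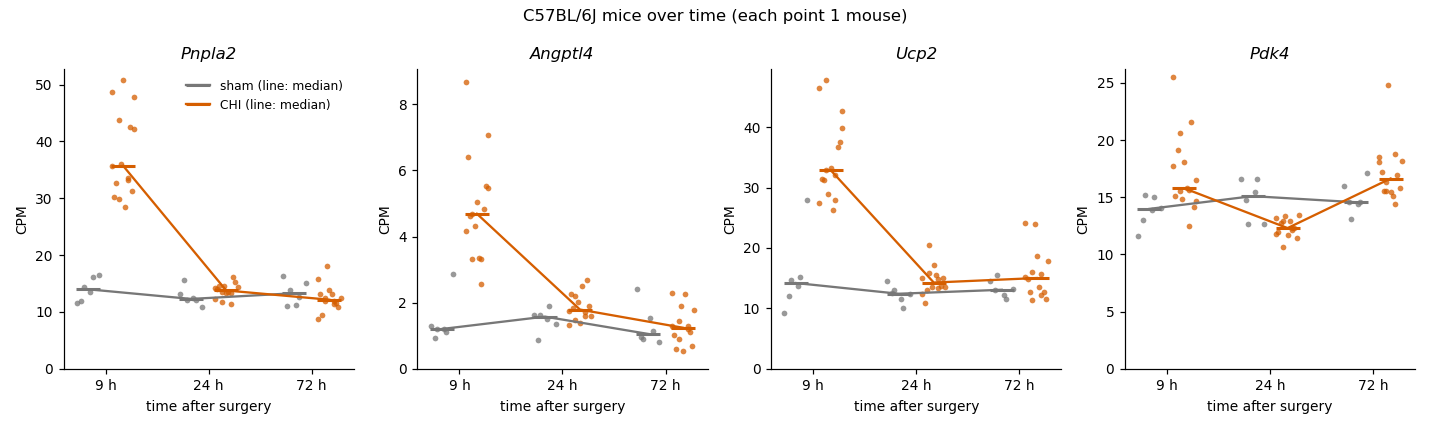
CPM (vertical axes, from 0) of Pnpla2, Angptl4, Ucp2 and Pdk4 in each C57BL/6J mouse at 9, 24 and 72 h (horizontal axes). Sham mice are in grey and CHI mice in orange, with group medians joined by lines of the same colours. The CHI median of Pnpla2 is 35.7 CPM at 9 h, 13.8 at 24 h and 12.2 at 72 h, against sham medians of 14.0, 12.3 and 13.3.

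The CHI effect at 9 h was larger than at the later times when the difference itself was tested. In C57BL/6J mice 4 of the 7 genes had a larger effect at 9 h than at 24 h, where 5.05% of all genes differed: Pnpla2 by 1.31 ± 0.16, Angptl4 by 1.54 ± 0.32, Ucp2 by 0.96 ± 0.21 and Pdk4 by 0.58 ± 0.13 on the log2 scale (edgeR adjusted p = 4.86e-08, 0.00112, 0.00175 and 0.00314). The Pdk4 difference joins a 9 h value above 0 and a 24 h value below it. Against 72 h, where 6.92% of genes differed, 3 of the 7 passed, Pnpla2 by 1.53 ± 0.16, Angptl4 by 1.90 ± 0.33 and Ucp2 by 0.97 ± 0.21 (edgeR adjusted p = 1.92e-10, 5.34e-05 and 0.00128). Surgery was done in the morning, so 9 h tissue was also taken at another hour of day, and time after injury, hour and experiment cannot be told apart in the raw levels. Each difference is CHI against sham of the same time, but no experiment held both 9 h and later mice. Time after injury, hour and experiment therefore cannot be told apart in the change of the CHI effect either.

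Sham mice alone also differed between times. Over the 4 strains, sham mice at 9 h had more Pnpla2 (0.26 ± 0.07 on the log2 scale, edgeR adjusted p = 0.00167), Cpt1a (0.15 ± 0.05, 0.0153) and Ucp2 (0.38 ± 0.10, 0.00102) than at 24 h, and less Plin2 (-0.37 ± 0.07, 2.62e-05). The same 4 genes differed in the same directions against 72 h, with 0.19, 0.22, 0.53 and -0.33 (edgeR adjusted p = 0.0231, 0.000282, 1.08e-05 and 0.000127), although Pnpla2 missed the threshold without the choroid plexus libraries (0.0558). Of all genes 48.9% differed between 9 and 24 h and 46.8% between 9 and 72 h, so 4 of 7 was close to the share of all genes. Between 24 and 72 h 0.03% of genes differed and none of the 7, and DESeq2 called none of the 7. At an unadjusted p under 0.05 there was 1 of the 7, and 1130 of the 16688 genes tested.

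In gKO mice at 9 h none of the 7 genes passed, where 0.199% of all genes were called. Pnpla2 was at 10.2, 14.6 and 17.6 CPM in 6 sham mice and at 11.6, 21.0 and 51.2 CPM in 13 CHI mice, with 7 of 13 above every sham mouse. With such spread the log2 difference was 0.65 ± 0.26 (edgeR adjusted p = 0.375), and the highest CHI mouse reached the level of the highest C57BL/6J one. Angptl4 was at 1.00, 1.57 and 2.17 CPM in sham mice and at 1.42, 2.27 and 4.20 CPM in CHI mice, a log2 difference of 0.75 ± 0.26 (edgeR adjusted p = 0.254). Ucp2 was at 14.6, 17.8 and 26.3 CPM in sham mice and at 17.5, 23.8 and 47.3 CPM in CHI mice, a log2 difference of 0.53 ± 0.20 (edgeR adjusted p = 0.318). All groups overlapped, and the CHI mice spread widely. At an unadjusted p under 0.05 these 3 passed, among 1784 of the 16604 genes tested, and DESeq2 called none of the 7. The single fit of all 200 mice called Pnpla2 (0.70, edgeR adjusted p = 0.000581) and Ucp2 (0.57, 0.0104). Pdk4 differed by -0.25 ± 0.13 (edgeR adjusted p = 0.510).

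In eRestore mice at 9 h 1 of the 7 genes passed, Acaa2, which was lower, while 7.34% of all genes were called. Acaa2 was at 15.3, 19.7 and 23.3 CPM in 6 sham mice and at 12.0, 16.3 and 19.3 CPM in 12 CHI mice, with 4 of 12 below every sham mouse. The log2 difference was -0.31 ± 0.09 (edgeR adjusted p = 0.0487), and the call was lost on leaving out sham replicate 2, 3, 5 or 6. It was also lost without the filter (0.0598), without sex and age (0.0592), with experiment in place of age (0.0524), with RLE factors (0.0510), in each experiment alone (0.115 and 0.644) and in the single fit (0.0866), while DESeq2 kept it (adjusted p = 0.0266). Pnpla2 was at 11.1, 13.8 and 23.0 CPM in sham mice and at 15.6, 19.3 and 30.5 CPM in CHI mice, a log2 difference of 0.42 ± 0.16 (edgeR adjusted p = 0.114). Without sham replicate 6, the highest for Pnpla2, it was 0.59 (edgeR adjusted p = 0.0144), and it also passed in the single fit (0.44, edgeR adjusted p = 0.0377) and in DESeq2 with gene-length offsets (0.57, adjusted p = 0.0163). Angptl4 was at 0.773, 1.59 and 2.97 CPM in sham mice and at 1.24, 2.22 and 2.92 CPM in CHI mice, a log2 difference of 0.46 ± 0.22 (edgeR adjusted p = 0.193).

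Ucp2 in eRestore mice was at 16.1, 17.6 and 44.5 CPM in sham mice and at 20.4, 26.9 and 29.9 CPM in CHI mice. The highest sham mouse was replicate 3, the library with the highest choroid plexus markers of all, and it lay above every CHI mouse. The log2 difference was 0.17 ± 0.19 (edgeR adjusted p = 0.617) with it and 0.46 (edgeR adjusted p = 0.0320) without it. In the 2 experiments of this comparison it was -0.24 and 0.65, the second passing (edgeR adjusted p = 0.0119).

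In nRestore mice at 9 h all 7 log2 differences were above 0, with a median of 0.41 against 0.01 over all genes, and 1 gene passed, Ucp2, where 0.608% of all genes were called. Ucp2 was at 18.5, 16.8, 16.9 and 14.6 CPM in the 4 sham mice and at 22.7, 27.0 and 41.0 CPM (lowest, median, highest) in the 6 CHI mice, and the groups did not overlap. The log2 difference was 0.87 ± 0.17 (edgeR adjusted p = 0.0498), and the call was lost without sham replicate 1, 3 or 4 (0.109, 0.230 and 0.147), without the choroid plexus library (0.126) and with RLE factors (0.0503). Pnpla2 was at 13.4, 14.5, 13.2 and 12.5 CPM in sham mice and at 15.2, 19.0 and 38.7 CPM in CHI mice, also without overlap, in a comparison where 2.64% of genes had every CHI mouse above every sham mouse. Its log2 difference of 0.86 ± 0.28 did not pass in edgeR (adjusted p = 0.254). It passed in DESeq2 with gene-length offsets (0.92, adjusted p = 0.0170) and in the single fit (0.70, edgeR adjusted p = 0.0296). EdgeR without the filter gave the same 0.86 with an adjusted p of 3.49e-09. The mice and the effect were the same there, so that small p adds nothing to the filtered fit, and its cause was not tested. Angptl4 was at 1.85, 2.05, 0.998 and 1.44 CPM in sham mice and at 0.682, 1.24 and 4.79 CPM in CHI mice. The CHI median of Angptl4 was below the sham median while the fitted log2 difference was above 0, at 0.76 ± 0.49 (edgeR adjusted p = 0.552), and the highest CHI mouse was above every sham mouse.

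**Figure D3:**
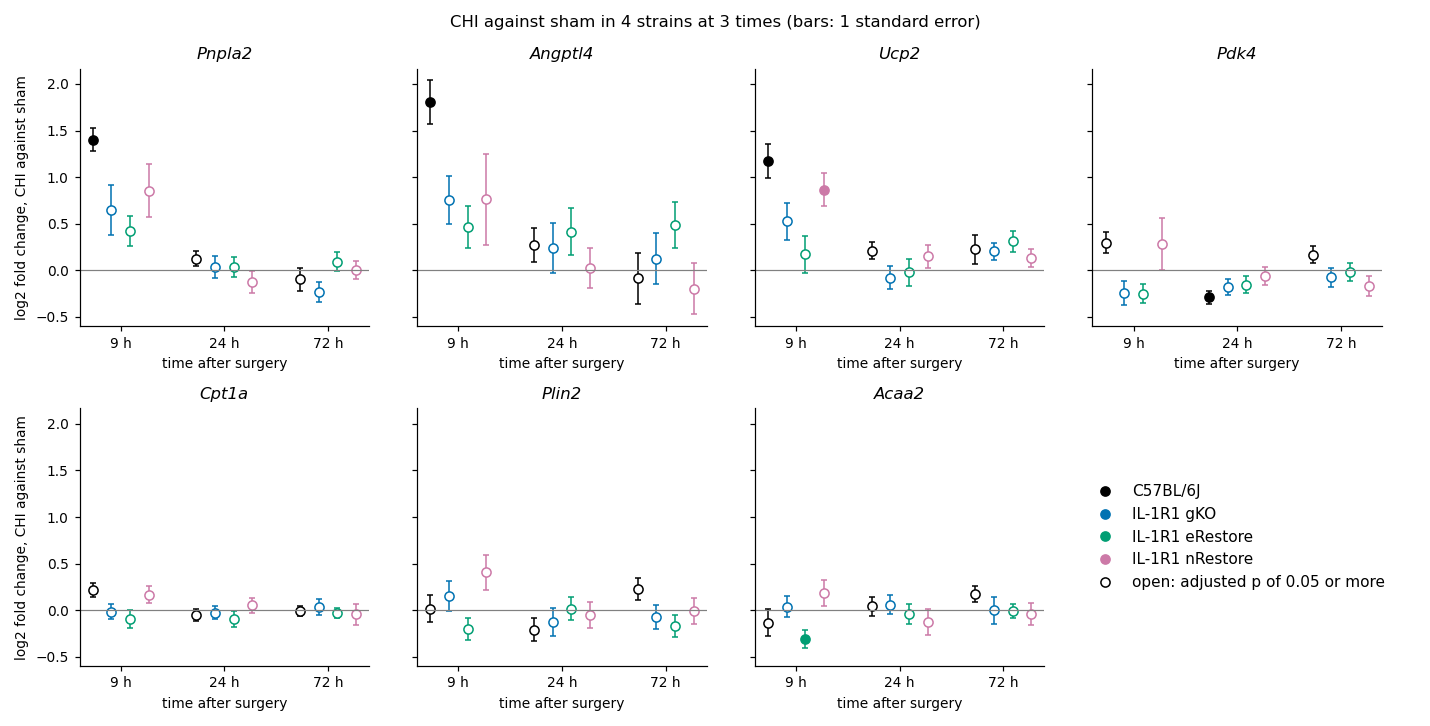
Log2 difference between CHI and sham mice (edgeR, bars are ±1 standard error) for the 7 genes in 4 strains at 9, 24 and 72 h, with filled symbols for an adjusted p under 0.05. At 9 h Pnpla2, Angptl4 and Ucp2 lie at 1.40, 1.80 and 1.17 in C57BL/6J mice and between 0.17 and 0.87 in the other strains, and most later values lie near 0.

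At the later times none of the 7 genes passed in gKO, eRestore or nRestore mice. In gKO mice the log2 differences ran from -0.18 (Pdk4) to 0.24 (Angptl4) at 24 h, where 0.0059% of genes were called, and from -0.23 (Pnpla2) to 0.21 (Ucp2) at 72 h, where 0% were. In eRestore mice they ran from -0.15 (Pdk4) to 0.41 (Angptl4) at 24 h, with 0% of genes called, and from -0.17 (Plin2) to 0.49 (Angptl4) at 72 h, with 0.00605% called. In nRestore mice they ran from -0.13 (Acaa2) to 0.15 (Ucp2) at 24 h, with 0% called, and from -0.20 (Angptl4) to 0.13 (Ucp2) at 72 h, with 0.0121% called. The lowest edgeR adjusted p of any of the 7 in these comparisons was 0.563. At an unadjusted p under 0.05 the 7 gave 1 and 2 genes in gKO mice at 24 and 72 h. They gave 0 and 1 in eRestore mice and 0 at both times in nRestore mice. Of the 16505 to 17059 genes tested, 376 to 1502 were under that p. DESeq2 called none of the 7 in any of these comparisons.

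Over the 4 strains together at 9 h, 3 of the 7 genes passed, all higher after CHI, where 26.5% of genes were called, 12.7% higher and 13.8% lower. The log2 differences were 0.82 ± 0.11 for Pnpla2, 0.85 ± 0.17 for Angptl4 and 0.64 ± 0.11 for Ucp2 (edgeR adjusted p = 9.14e-08, 8.67e-05 and 7.11e-06), or 1.77-fold, 1.80-fold and 1.56-fold. Without the choroid plexus libraries they were 0.79, 0.82 and 0.76. Pnpla2 was 0.78, 0.92 and 0.80 in the 3 experiments at 9 h taken alone, passing in the 2 that held C57BL/6J mice (edgeR adjusted p = 0.00221 and 0.0110) and not in the third (0.176). Angptl4 was 1.05, 1.09 and 0.68 and Ucp2 0.55, 0.75 and 0.67 in the same order. The median log2 difference of the 7 genes was 0.05, against -0.01 over all genes, since Pdk4, Cpt1a, Plin2 and Acaa2 lay between -0.07 and 0.05.

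At 24 h over the 4 strains Pdk4 alone passed, at -0.19 ± 0.04 on the log2 scale (edgeR adjusted p = 0.00138), where 1.96% of genes were called. Its log2 difference was below 0 in each strain, at -0.29 in C57BL/6J, -0.18 in gKO, -0.15 in eRestore and -0.06 in nRestore mice, and it missed the threshold without sex and age (0.0638), in the largest experiment alone (0.321) and in the single fit (0.621). A single experiment gave 5 gKO, 4 eRestore and 4 nRestore CHI mice at 24 h but no sham mice of these strains. These CHI groups reached 7.4, 7.4 and 7.2 months of age, and their sham groups 5.3 months. Injury, experiment and age therefore cannot be fully told apart in these strains at 24 h. At 72 h Ucp2 alone passed, at 0.24 ± 0.06 (edgeR adjusted p = 0.0292), where 0.717% of genes were called. Its log2 difference was above 0 in each strain, at 0.22, 0.21, 0.31 and 0.13 in the same order, and it missed the threshold with gene-length offsets in DESeq2 (0.321), in the largest experiment alone (0.134) and in the single fit (0.338). The later CHI effects were smaller than those at 9 h over all strains: the difference of 9 h minus 24 h was 0.76 for Pnpla2, 0.55 for Angptl4 and 0.49 for Ucp2 (edgeR adjusted p = 9.48e-08, 0.0465 and 0.00112), where 12.2% of genes differed. That of 9 h minus 72 h was 0.88, 0.71 and 0.41 (edgeR adjusted p = 1.87e-10, 0.00548 and 0.00560), where 14.9% of genes differed. Angptl4 in the 24 h comparison missed the threshold without sex and age (0.0677) and without the choroid plexus libraries (0.104).

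Whether the strains differed in their response was tested directly, and at 9 h none of the 7 genes passed in edgeR. The 3 comparisons share the C57BL/6J mice. The eRestore effect minus the C57BL/6J effect was -0.97 ± 0.27 for Pnpla2, -1.38 ± 0.40 for Angptl4 and -1.01 ± 0.26 for Ucp2 on the log2 scale (edgeR adjusted p = 0.167, 0.178 and 0.139), where 0.0107% of genes differed. DESeq2 called Ucp2 there (adjusted p = 0.0442). The gKO effect minus the C57BL/6J effect was -0.74 ± 0.27, -1.02 ± 0.40 and -0.62 ± 0.26 (edgeR adjusted p = 0.587, 0.618 and 0.702), where 0% of genes differed. The nRestore effect minus the C57BL/6J effect was -0.65 ± 0.32, -1.46 ± 0.47 and -0.32 ± 0.30 (edgeR adjusted p = 0.877, 0.650 and 0.995), where 0.00534% differed, and there strain and experiment cannot be told apart. At an unadjusted p under 0.05 there were 5, 5 and 2 of the 7 genes for gKO, eRestore and nRestore. Pdk4 and Cpt1a were the others for gKO and eRestore. Of the 18741 genes tested, 1199, 1608 and 1042 were under that p. DESeq2 called 17, 37 and 20 genes in all, with none of the 7 for gKO and nRestore. With these errors the data neither show a weaker response in the other strains at the threshold used nor show equal responses.

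At 24 and 72 h no strain difference of the 7 genes passed in edgeR or DESeq2. At 24 h 0.00541%, 0.0108% and 0% of all genes differed for gKO, eRestore and nRestore against C57BL/6J, and at 72 h 0%, 0% and 0.00543%. The values of the 7 genes ran from -0.36 to 0.20 at 24 h and from -0.38 to 0.52 at 72 h. At 72 h 2 values were under an unadjusted p of 0.05, Plin2 for eRestore and Pdk4 for nRestore. Of the 18408 genes tested there, 793 and 900 were under that p. In sham mice over all times, 4.82% of genes differed between gKO and C57BL/6J and 13.5% between nRestore and C57BL/6J, with none of the 7 among them by edgeR, by DESeq2 or at an unadjusted p under 0.05. Between eRestore and C57BL/6J sham mice 4.65% of genes differed and 1 of the 7, Plin2, which was higher by 0.27 on the log2 scale (edgeR adjusted p = 0.0367, or 0.0554 without the choroid plexus libraries).

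No difference of the CHI effect between female and male mice passed the test. Of all genes 0% differed at each of 9, 24 and 72 h by edgeR, and DESeq2 called 1 at each time. Of the 17639, 17619 and 17480 genes tested, 370, 916 and 1611 were at an unadjusted p under 0.05. Of the 7 genes 0, 0 and 2 were under that unadjusted p, and none was called by either tool. Their differences, female minus male, ran from -0.15 to 0.15 at 9 h, -0.19 to 0.08 at 24 h and -0.28 to 0.01 at 72 h, where nRestore mice had to be left out.

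The wider pathway was read from 10 lists of lipid genes, of which 135 genes besides the 7 were tested in C57BL/6J mice at 9 h. Of these 17 were higher and 14 lower, or 12.6% and 10.4% against 7.05% and 7% of all genes, and their median log2 difference was 0.00 against -0.01 over all genes. The following results are for C57BL/6J mice at 9 h unless another strain is named.

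**Figure D4:**
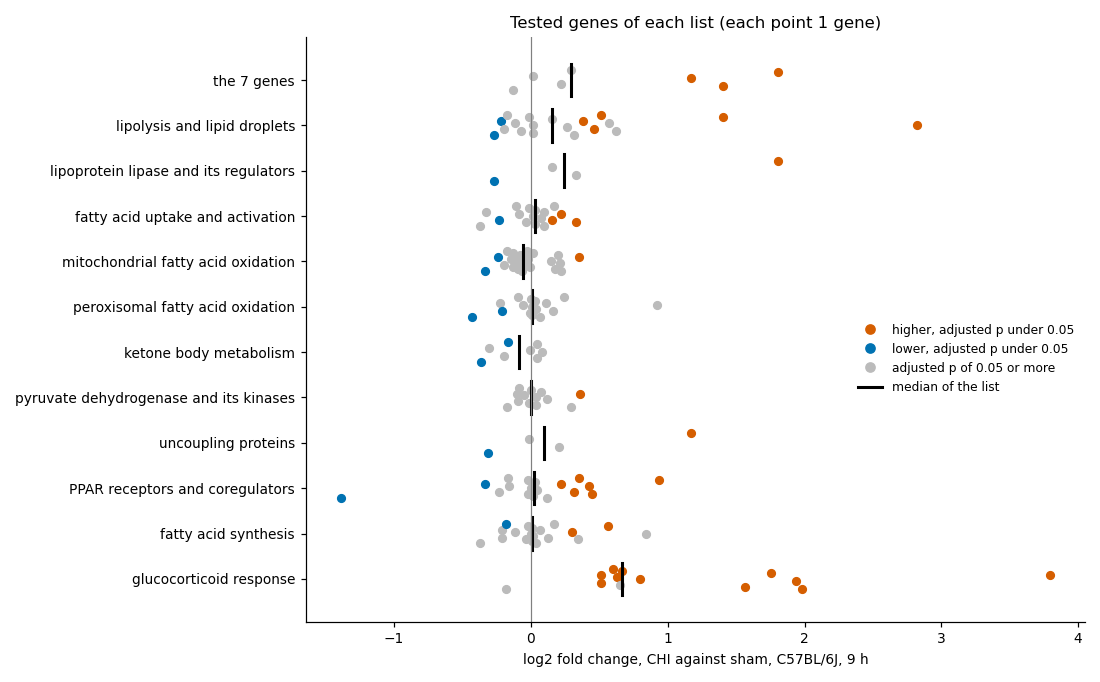
Log2 difference between CHI and sham C57BL/6J mice at 9 h (horizontal axis) for every tested gene of each list, 1 point per gene, orange for higher and blue for lower at an edgeR adjusted p under 0.05, grey for neither, with the list median as a black line. The medians of the lipid lists lie near 0. Of the 13 glucocorticoid response genes, a list chosen with earlier results known, 11 are orange, where 7.05% of all genes were higher.

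Among the other 17 tested genes of lipolysis and lipid droplets 4 were higher and 2 lower. Plin4, another perilipin, was at 3.73, 5.64 and 11.3 CPM in sham mice and at 25.3, 41.7 and 73.8 CPM in CHI mice. The groups were far apart, with a log2 difference of 2.82 ± 0.31 or 7.06-fold (edgeR adjusted p = 7.98e-06), in contrast to Plin2. Lipe, the hormone-sensitive lipase that acts after Pnpla2, rose by 0.46 and Dgat2, which makes triglyceride, by 0.38, while the seipin gene Bscl2, of droplet formation, differed by -0.22. Mgll, which completes the release of fatty acids, was at 0.15 and did not pass. Of the other 3 genes around lipoprotein lipase, Lmf1, a factor for lipase folding, was lower at -0.27, and the lipase gene Lpl itself was at 0.15 ± 0.17 without passing.

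Fatty acid uptake and activation had 3 of 17 genes higher and 1 lower. The thioesterases Acot11 and Acot1 were higher by 0.22 and 0.33 and the acyl-CoA synthetase Acsl3 by 0.15, whereas Acsl4 was at -0.23. In mitochondrial fatty acid oxidation 1 of the other 22 genes was higher and 2 lower. Cpt2, the inner-membrane partner of Cpt1a, rose by 0.35 ± 0.12 (edgeR adjusted p = 0.0488), and the acyl-CoA dehydrogenases Acadm and Acads were at -0.24 and -0.34. The ketone body list had 0 of 8 higher and 2 lower, the monocarboxylate transporter Slc16a7 at -0.36 and Oxct1, which activates acetoacetate, at -0.17.

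Around pyruvate dehydrogenase 1 of the other 12 genes passed, the kinase Pdk2, at 0.36 ± 0.06 (edgeR adjusted p = 0.000173). Pdk2 was also higher in eRestore mice at 0.41 (edgeR adjusted p = 0.00789) and in nRestore mice at 0.48 (0.00967), and in gKO mice it was at 0.22 and did not pass (0.426). Of the other 3 mitochondrial uncoupling carriers Slc25a14 was lower at -0.31. Of 18 PPAR receptors and coregulators 6 were higher and 2 lower, among them Rxra, the partner of PPAR receptors, at 0.35, Klf15 at 0.45 and Lpin3 at 0.94, with the glucocorticoid receptor gene Nr3c1 at -0.34. In fatty acid synthesis 2 of 19 genes were higher, Thrsp at 0.57 and the elongase Elovl1 at 0.30, and Srebf1, a regulator of lipid synthesis, was lower at -0.19.

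A list of 13 glucocorticoid response genes had 11 higher and 0 lower, with a median log2 difference of 0.67. Of all genes 7.05% were higher in this comparison. The list was chosen with earlier results of these data known, so its count is a description and not an independent test. Fkbp5, a chaperone of steroid receptors, rose 3.96-fold (1.98 ± 0.15, edgeR adjusted p = 5.80e-08), and Map3k6, Arrdc2 and Cdkn1a rose by 1.76, 1.56 and 1.94 on the log2 scale. The clock gene Per1 was at -0.18 and did not pass. In the other strains the counts were 0 of 13 in gKO mice, 3 of 12 higher in eRestore mice and 0 of 12 in nRestore mice. Of all genes 0.199%, 7.34% and 0.608% were called in these strains in either direction. Fkbp5 was at 1.13 ± 0.28 (edgeR adjusted p = 0.117), 0.94 ± 0.21 (0.0173) and 1.40 ± 0.52 (0.336) in the same order.

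The same lipid lists were counted in the other strains at 9 h. In gKO mice 0 of 135 genes passed. In eRestore mice 7 were higher and 9 lower, or 5.22% and 6.72% of those tested, where 7.34% of all genes were called in either direction. In nRestore mice 2 of 135 were higher and 1 lower, or 1.48% and 0.741%, which together stand against 0.608% of all genes called in either direction. Plin4 was at 1.51 ± 0.40 in gKO (edgeR adjusted p = 0.142), 1.61 ± 0.30 in eRestore (0.00619) and 1.80 ± 0.58 in nRestore mice (0.269), and at 1.91 over all strains (5.10e-11). Over all strains 23 genes of these lists were higher and 18 lower, or 17.2% and 13.4% of those tested against 12.7% and 13.8% of all genes, so the share that was lower was close to that of all genes. In eRestore mice mitochondrial fatty acid oxidation had 0 of 24 genes higher and 5 lower, where 7.34% of all genes were called in either direction. Acaa2 was among the 5, with a call that many alternatives ended, as given above.

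Cell type markers were set beside these results in C57BL/6J mice at 9 h, because a bulk level cannot tell fewer cells of a type from less RNA per cell. Astrocyte markers summed to 2080, 2179 and 2488 TPM in sham mice and to 2052, 2339 and 2478 TPM in CHI mice, with 3 of 8 markers higher and 0 lower. Endothelial markers summed to 232, 288 and 324 TPM in sham mice and to 300, 375 and 400 TPM in CHI mice, with 3 of 7 higher and 1 lower, so the sums overlapped little. Microglial markers summed to 277, 352 and 456 TPM in sham mice and to 209, 297 and 390 TPM in CHI mice, with 0 of 7 higher and 3 lower. Choroid plexus markers summed to 17.9, 142.9 and 6016 TPM in sham mice and to 5.20, 27.6 and 2535 TPM in CHI mice, with 0 of 6 passing in C57BL/6J and 6 of 6 lower over all strains. Leptomeningeal fibroblast markers had 0 of 6 passing in C57BL/6J mice and 4 of 6 lower over all strains. Adipocyte markers, where Pnpla2 and Plin2 are classically studied, summed to at most 2.01 TPM in any mouse, and none of the 6 was abundant enough to test. The part of endothelial or microglial content in the rise of Pnpla2, Angptl4 and Ucp2 was not tested.

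The genes with the most similar pattern were sought by the correlation of mean log2 CPM over the 24 groups of strain, surgery and time, among 16657 genes. These groups share libraries, experiments and hour of collection, and the values are descriptions. Pnpla2 was most like Spns2 (r = 0.98), Fkbp5 (0.98) and Wipf3 (0.96). Ucp2 was most like Tekt4, Igfbp7 and Ccnf (0.94 each). Angptl4 was most like Snx24 (0.89), Tma16 (0.88) and Sesn1 (0.88). Cpt1a was most like Slc2a1, Arhgef4 and Rell2 (0.92, 0.92 and 0.91), Plin2 like Atp6v1c2, Vav3 and Arhgef40 (0.89, 0.89 and 0.88) and Acaa2 like Uqcr10, Acadl and S100a1 (0.86, 0.82 and 0.81). Pdk4 had the weakest partners, Chil1 at 0.84, Txlnb at 0.71 and Crtc3 at 0.67.

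Between single CHI mice at 9 h the genes varied together. Log2 CPM was taken as the deviation from the strain mean over 46 CHI mice, and 14 of the 21 gene pairs passed by Pearson and by Spearman with a permutation test within strain (100000 resamples, two-sided, Benjamini-Hochberg over the 21 pairs), all 14 positive. Pnpla2 and Ucp2 were the closest pair, with r = 0.85 and rho = 0.86 (permutation p = 1e-05 for each, the smallest these resamples can give, adjusted 5.25e-05 and 7e-05). The relation was 0.84 without the 2 mice farthest from the Pnpla2 median, 0.82 within experiments, 0.78 on TPM and 0.86 in the 42 mice outside the choroid plexus libraries. By strain r was 0.68 in C57BL/6J, 0.90 in gKO, 0.77 in eRestore and 0.98 in nRestore mice. CHI mice with high Pnpla2 were thus also those with high Ucp2 in each strain. Pdk4 followed Ucp2 (r = 0.71, rho = 0.64) and Pnpla2 (0.68, 0.67), although edgeR and DESeq2 called it in no strain fitted alone at 9 h and only the single fit of all mice called it in C57BL/6J mice. Angptl4 followed Ucp2 (0.64 by Pearson, 0.68 by Spearman) and Pdk4 (0.62, falling to 0.46 without the 2 farthest mice). On TPM r was lower for each of the 14 pairs, as in Pnpla2 with Plin2 (0.46 to 0.24) and Cpt1a with Acaa2 (0.41 to 0.20). In the nRestore mice alone some of the 14 had r below 0, such as Pnpla2 with Cpt1a (-0.31) and Cpt1a with Ucp2 (-0.27). Log2 CPM of all genes shares a library's scaling, and its part in the positive signs was not tested. Pairs of other genes were not computed, so 14 of 21 cannot be set against the share among all genes.

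**Figure D5:**
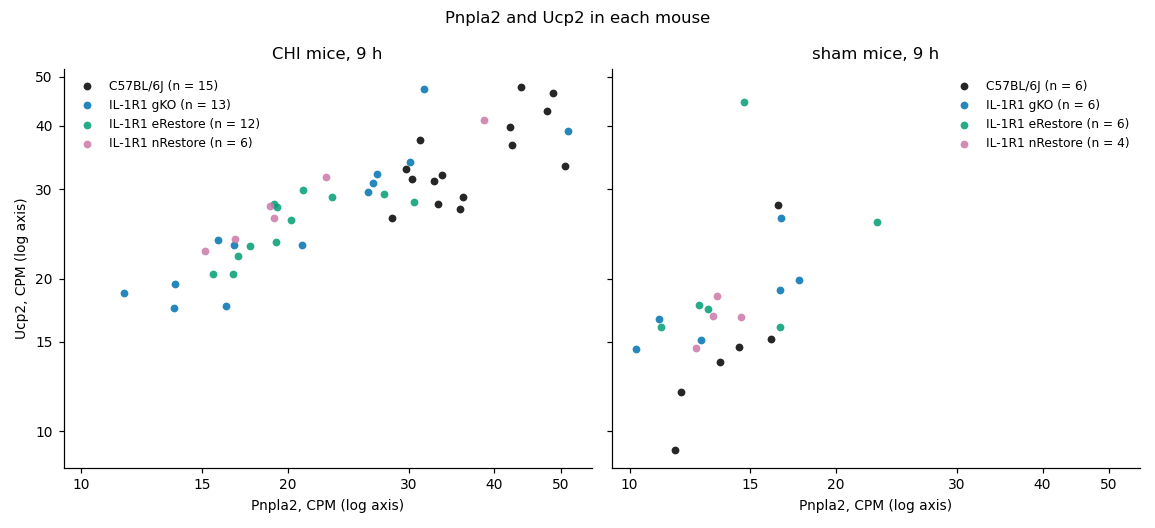
Pnpla2 (horizontal) and Ucp2 (vertical) in CPM on log axes for each mouse at 9 h, CHI mice on the left and sham mice on the right, coloured by strain. In CHI mice Ucp2 rises with Pnpla2 over all 4 strains, and the upper end holds both C57BL/6J and gKO mice. The sham mouse at 44.5 CPM of Ucp2 is eRestore replicate 3.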

How the data were processed

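RNA of 1 sample per mouse from 200 mice was sequenced as 1 library each. The authors deposited Salmon estimated counts per gene and TPM values for all libraries, and the submitters' processing notes name FastQC, STAR, Salmon, DESeq2 and the build GRCm39. The study's methods, written for the C57BL/6J mice, give poly(A) selection and the nf-core RNA-seq pipeline. The annotation release and the strand setting of the counting are not given in the sources used here. Strain, surgery, time, sex, age and experiment were taken from the labels. Replicate numbers follow accession order.

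The estimated counts were rounded and fitted with edgeR 4.0.16 (R 4.3.3, quasi-likelihood F test, TMM factors, robust), with each strain and time fitted alone and sex and age as covariates (age only for nRestore at 72 h). A gene was kept with 10 or more counts in a number of mice equal to the smaller group, and p was adjusted by Benjamini-Hochberg over all genes tested, with 0.05 as the threshold. Standard errors were the log2 difference over the square root of F. Tests of all strains, of strain, time and sex differences used the same model with strain terms, and sham tests between times left out age, which follows time. Displayed CPM used TMM factors over all 200 mice. TPM entered levels between genes, marker sums, a check of the covariation and the gene lengths behind the DESeq2 offsets. Totals of 14857972 to 57355650 counts limit the precision of low genes, Angptl4 above all. Of 879 pairs of libraries within groups 0 were identical, and the closest pair had a chi-square of 4.89 per gene over 13165 genes, so each mouse counted as 1 replicate.

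The 7 genes, the pathway and marker lists and the tests were chosen with earlier results of these data known. The 7 genes are named in every comparison. From each list the text names up to 4 genes called in C57BL/6J mice at 9 h with the smallest p, and the most abundant gene that did not pass where space allowed. The genes of the peroxisomal list are not reported here one by one. The 3 genes most like each of the 7 are named. The fits were tested on simulated data. Alternatives were DESeq2 1.42.0 with its own size factors or with gene-length offsets, no filter, no covariates, experiment in place of age, RLE factors, the largest experiment alone, a single fit of all mice and leaving out sham mice in groups of 5 or fewer and in C57BL/6J at 9 h. Chosen after seeing the data were each experiment alone at 9 h, leaving out sham mice of gKO and eRestore at 9 h, and leaving out the 16 libraries above 1000 TPM of choroid plexus markers. Gene positions are from GENCODE vM39 on GRCm39. Of the 7 genes 5 had promoter entries.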

Additional observations from a re-analysis of the deposited data

Results flagged for a closer look

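Of 112 group tests of the 7 genes over groups of 4 to 10 mice, 6 had 1 mouse farther from the rest than Dixon's critical value allows, and chance gives about 1 in 20 such groups. Pdk4 was at 21.6 CPM in an eRestore sham mouse at 72 h, Cpt1a at 37.6 CPM in a C57BL/6J sham mouse at 72 h and Plin2 at 6.75 CPM in an nRestore CHI mouse at 72 h. The other 3 were libraries above 1000 TPM of choroid plexus markers, Angptl4 at 2.85 CPM in C57BL/6J sham replicate 4 at 9 h, and Angptl4 at 1.78 CPM and Ucp2 at 22.2 CPM in the same eRestore sham mouse at 24 h.

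The CHI effect differed between times by the test of the difference itself in 13 cases. In C57BL/6J mice the effect at 9 h exceeded that at 24 h by 1.31 for Pnpla2, 1.54 for Angptl4, 0.96 for Ucp2 and 0.58 for Pdk4 on the log2 scale, and that at 72 h by 1.53, 1.90 and 0.97 for Pnpla2, Angptl4 and Ucp2. Over the 4 strains it exceeded that at 24 h by 0.76 for Pnpla2, 0.55 for Angptl4 and 0.49 for Ucp2, and that at 72 h by 0.88, 0.71 and 0.41. No experiment held mice of 9 h and of a later time, so time and experiment cannot be told apart here.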

How the results depend on the processing

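Of the alternatives tried on the results named in the text, 1099 left the direction and the side of the threshold in place, 22 newly passed, 40 no longer passed and 38 changed sign. A further 120 values of the 7 genes in other comparisons were recomputed in 705 alternatives, of which 86 changed sign and 0 passed. No alternative moved the median of all genes by over 0.1 on the log2 scale. No paired analysis was possible because the labels number no replicates within groups and the numbers used here follow accession order. Experiment could not replace age in the sham comparisons of 9 h with later times. Causes of the changes below were not tested.

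In C57BL/6J mice at 9 h the share of genes called, 14.1%, was 7.12% in the larger and 1.68% in the smaller experiment and 6.40% without the filter, which adds genes of low counts (10.4% to 14.0% on leaving out each sham mouse). The number of the 7 genes called was 5 in the single fit of all mice and 1 in the smaller experiment. At 24 h 0.845% of genes were called by DESeq2, 1.05% without the filter, 0.109% in the largest experiment and 0.114% in the single fit, and 0 of the 7 with gene-length offsets, without sex and age, in the largest experiment, in the single fit or without the choroid plexus libraries. At 72 h 0.243% and 0.13% were called by DESeq2 without and with offsets, 0.0126% without the filter, 0.107% with experiment in place of age and 0.139% in the single fit. Over all strains at 9 h the share was 9.48%, 9.50% and 1.97% in the 3 experiments (0 of the 7 in the third) and 12.3% without the filter. At 24 h it was 0.593% without the filter, 1.28% with experiment in place of age, 0.141% in the largest experiment, 0.438% in the single fit and 1.15% without the choroid plexus libraries, with 0 of the 7 without sex and age, in the largest experiment and in the single fit. At 72 h it was 0.223% in the largest experiment and 0.42% without the filter, with 0 of the 7 in the largest experiment, with offsets and in the single fit.

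Of the 7 genes, gKO mice at 9 h had 2 called in the single fit. eRestore mice at 9 h had 2 with offsets and 0 without the filter, without sex and age, with experiment in place of age, with RLE factors and in the largest experiment (0 to 1 on leaving out each sham mouse). nRestore mice at 9 h had 2 with offsets, without the filter and in the single fit, and 0 with RLE factors and without the choroid plexus library (0 to 1 on leaving out each sham mouse). DESeq2 called 1 for the eRestore difference at 9 h, and 0 passed between eRestore and C57BL/6J sham mice without the choroid plexus libraries.

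Signs changed in values that passed in neither setting. In C57BL/6J mice Plin2 at 9 h was -0.058 in the larger experiment and -0.069 to 0.076 on leaving out each sham mouse, Acaa2 at 9 h was -0.22 to 0.013 likewise, and Angptl4 at 72 h was 0.042 with offsets, 0.027 without sex and age, 0.16 with experiment in place of age and 0.011 in the single fit. In gKO mice at 9 h Cpt1a was 0.16 in one experiment and 0.029 in another (-0.032 to 0.0035 on leaving out each sham mouse), Pdk4 0.025, Angptl4 -0.16 and Plin2 -0.46 in single experiments, and Acaa2 -0.0023 to 0.091 on leaving out each sham mouse. In eRestore mice at 9 h Ucp2 was -0.24 in the larger and Cpt1a 0.13 in the smaller experiment, and Cpt1a was 0.039 without the choroid plexus library (-0.14 to 0.039 on leaving out each sham mouse). In nRestore mice leaving out each sham mouse gave Acaa2 at -0.23 to 0.0032 at 24 h and Angptl4 at -0.35 to 0.0032 at 72 h. Over all strains Plin2 at 9 h was -0.058 and -0.022, Pdk4 0.054 and Acaa2 0.16 in single experiments. At 24 h Cpt1a was 0.0049 in the single fit and Acaa2 -0.0019 without the choroid plexus libraries, and at 72 h Pdk4 was -0.016 with offsets and -0.0060 in the single fit, and Pnpla2 0.0095 and Cpt1a 0.0076 in the largest experiment. Without the choroid plexus libraries Plin2 was -0.054 for the gKO difference at 9 h and Acaa2 -0.049 between sham mice at 9 and 24 h. Counting depth limits Angptl4 most, at 9 to 202 counts per mouse.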
